A study of Mus musculus with 9 samples.

Results

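The nuclear genes for the subunits of oxidative phosphorylation were described in mouse ovaries on postnatal day (PD) 14, 15 and 16. Genes were chosen by name and level. They had to be protein coding, with a symbol starting with Ndufa, Ndufb, Ndufc, Ndufs, Ndufv, Sdh, Uqcr, Cox4, Cox5, Cox6, Cox7, Cox8 or Atp5, and the assembly factors named Ndufaf and Sdhaf were left out. This gave 85 of the 52025 genes in the tables. A mean FPKM above 1 over the 9 libraries left 80 genes, with 35 in complex I, 4 in complex II, 8 in complex III, 16 in complex IV and 17 in complex V. FPKM is the number of sequenced fragments of a gene scaled to its exon length and to the mapped fragments of the library. Since the choice used the mean FPKM, the levels below are a description.

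Ovaries of juvenile Kunming mice, with no treatment named in the labels, were sampled at PD14, PD15 and PD16, the days around the formation of the follicular antrum, with 3 libraries for each day. The labels give the tissue as ovary but the source as granulosa cells, whereas the methods describe whole ovaries. The markers went with the ovary, since the 15 oocyte markers, which include Zp3 and Gdf9, summed to between 1259 and 1793 FPKM per library, and the 8 theca and interstitial markers to between 1196 and 2245 FPKM. The libraries held 20369006 to 28730960 mapped fragments, as recovered from the smallest steps of the values, and the replicates are named as independent ovaries without stated animals, so the p-values measure the spread between these samples. In such bulk tissue, fewer cells of a type and less RNA per cell cannot be told apart.

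Oxidative phosphorylation makes ATP in the inner mitochondrial membrane. Complexes I and II take electrons from NADH and succinate, complex III passes them to cytochrome c, complex IV reduces oxygen, and complex V, the ATP synthase, uses the proton gradient that complexes I, III and IV build. Most subunits are encoded in the nucleus, and all those of complex II are, whereas the mitochondrial genome encodes a few core subunits of the other complexes. In the growing follicle, the oocyte relies on this pathway, and steroid-producing cells hold many mitochondria.

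What the genes share beyond their names was examined in their promoters. RefSeq windows on GRCm38.p6, from 250 bases before to 50 after a transcription start, were matched for 64 of the 80 genes, which gave 69 windows. Motif letters were searched on both strands, and a match describes letters, not a bound site. GCGCATGC, the core of the motif of NRF1, a transcription factor of respiratory genes, was found in 10 of the 69 windows (14.5%), in 5.11% of the 12752 windows of genes tested between days and in 2.71% of all 32851 windows. AAGATGGC, the core for YY1, was in 9 windows (13.0%), against 4.31% of the windows of tested genes and 2.75% of all windows. Of the 9 genes with it, 7 belonged to complex I. CAAGGTCA, the core for the estrogen-related receptors, was in 4 windows (5.80%), against 1.10% of the windows of tested genes and 1.56% of all windows. CCGGAAGT, the core for GABP and other ETS factors, was in 4 windows (5.80%), against 7.79% and 3.89%. At least 1 of these motifs was found for 25 of the 64 genes. The windows below show 1 gene with each motif, and then the 2 genes that passed the test between days, Atp5e and Cox6b2, in which none of these letters was found. Each window is printed 5′ to 3′ in the direction of the gene, and capitals mark the motif letters on either strand.
Sdhb (chr4:140961021-140961320, plus strand): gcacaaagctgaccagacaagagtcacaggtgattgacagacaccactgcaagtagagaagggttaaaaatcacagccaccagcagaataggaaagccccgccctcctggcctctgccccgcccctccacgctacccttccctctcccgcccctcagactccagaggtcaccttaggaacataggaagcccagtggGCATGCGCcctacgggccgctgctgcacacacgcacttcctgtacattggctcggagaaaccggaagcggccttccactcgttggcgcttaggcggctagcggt
Ndufs4 (chr13:114388045-114388344, minus strand): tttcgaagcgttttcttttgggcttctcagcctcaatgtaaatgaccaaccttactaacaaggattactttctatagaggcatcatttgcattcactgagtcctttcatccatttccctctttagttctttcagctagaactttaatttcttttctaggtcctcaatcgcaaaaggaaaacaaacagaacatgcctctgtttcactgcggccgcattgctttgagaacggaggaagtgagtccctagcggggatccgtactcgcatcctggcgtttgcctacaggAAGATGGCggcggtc
Uqcr11 (chr10:80406772-80407071, minus strand): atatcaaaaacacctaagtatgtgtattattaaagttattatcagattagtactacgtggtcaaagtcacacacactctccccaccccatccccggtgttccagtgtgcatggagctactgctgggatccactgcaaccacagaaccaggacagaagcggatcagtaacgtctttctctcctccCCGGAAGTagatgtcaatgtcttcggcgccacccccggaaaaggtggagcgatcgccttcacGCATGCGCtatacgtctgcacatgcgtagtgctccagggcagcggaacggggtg
Atp5g3 (chr2:73911277-73911576, minus strand): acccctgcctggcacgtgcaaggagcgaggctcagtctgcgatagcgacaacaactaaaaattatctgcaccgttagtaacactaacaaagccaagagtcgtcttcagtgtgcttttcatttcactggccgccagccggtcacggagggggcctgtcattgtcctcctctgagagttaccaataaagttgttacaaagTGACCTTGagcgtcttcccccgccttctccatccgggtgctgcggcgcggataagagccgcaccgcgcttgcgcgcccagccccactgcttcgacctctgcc
Atp5e (chr2:174464052-174464351, minus strand): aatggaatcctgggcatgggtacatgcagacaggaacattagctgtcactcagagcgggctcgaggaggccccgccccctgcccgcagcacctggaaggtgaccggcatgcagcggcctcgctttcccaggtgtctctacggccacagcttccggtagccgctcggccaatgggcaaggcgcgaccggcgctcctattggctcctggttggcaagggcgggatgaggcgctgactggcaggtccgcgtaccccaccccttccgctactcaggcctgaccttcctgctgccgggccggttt
Cox6b2 (chr7:4753045-4753344, minus strand): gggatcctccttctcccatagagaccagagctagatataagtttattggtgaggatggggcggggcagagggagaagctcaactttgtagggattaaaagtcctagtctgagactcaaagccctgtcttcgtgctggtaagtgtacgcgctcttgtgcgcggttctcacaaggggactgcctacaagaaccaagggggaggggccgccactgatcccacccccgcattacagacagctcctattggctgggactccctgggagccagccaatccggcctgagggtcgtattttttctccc
In Sdhb, the NRF1 letters start 54 bases before the transcription start. In Ndufs4, the YY1 letters lie 35 bases after it. Uqcr11 holds the GABP letters 66 bases and the NRF1 letters 4 bases before the start, and Atp5g3 the letters for the estrogen-related receptors 52 bases before it.

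The levels of the 80 genes ran from 2.02 FPKM for Ndufb2 to 272.2 FPKM for Atp5a1, with a median of 57.7 FPKM. The median over the 15495 genes tested was 7.10 FPKM, and 75 of the 80 genes lay above it. Complex I summed to 1874 FPKM, complex II to 234.5 FPKM, complex III to 584.2 FPKM, complex IV to 1535 FPKM and complex V to 1374 FPKM. The medians were closer, at 46.7 FPKM for complex I, 58.0 FPKM for complex II, 77.4 FPKM for complex III, 74.97 FPKM for complex IV and 50.9 FPKM for complex V. Together, the 80 genes took between 1.63% and 1.84% of all FPKM in each library. In the order of mean levels, few neighbouring genes had ranges over the 9 libraries that did not overlap. This held for 2 of 34 neighbouring pairs in complex I, 2 of 3 in complex II and 2 of 7 in complex III. It also held for 3 of 15 in complex IV and 4 of 16 in complex V. Genes with overlapping ranges could still keep their order within each library, as Sdhd and Sdha did.

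**Figure D1:**
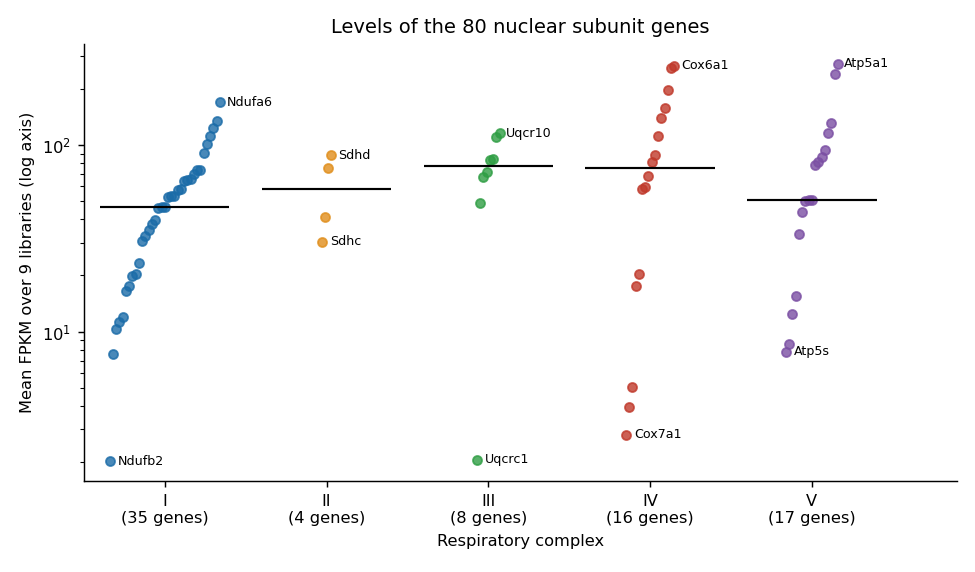
Mean FPKM over 9 libraries (log axis) of each of the 80 genes by respiratory complex, with a bar at the median of the complex and the highest and lowest gene named. The highest genes were Atp5a1 (272.2 FPKM) and Cox6a1 (266.0 FPKM), and the lowest Ndufb2 (2.02 FPKM) and Uqcrc1 (2.05 FPKM).

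In complex I, the highest level was that of Ndufa6, an accessory subunit, at 169.9 FPKM. Among the core subunits, Ndufv1 at 46.0 FPKM, which binds FMN, was above Ndufs1 at 12.04 FPKM, which carries iron-sulfur clusters. In complex II, Sdhd at 88.2 FPKM and Sdha at 74.9 FPKM, the membrane anchor and the flavoprotein, were above Sdhb at 41.1 FPKM, the iron-sulfur subunit, and Sdhc at 30.3 FPKM, the other anchor. In complex III, Uqcr10 at 115.6 FPKM was the highest and the Rieske protein Uqcrfs1 stood at 82.9 FPKM. The core protein Uqcrc2 was at 71.9 FPKM, while its partner Uqcrc1 was listed at 2.05 FPKM, with 6.30 FPKM in PD14 replicate 3 and 1.06 to 2.80 FPKM in the other libraries. In complex V, Atp5a1 and Atp5b, which encode the alpha subunit and the catalytic beta subunit, stood at 272.2 and 241.0 FPKM, and Atp5s at 7.78 FPKM was the lowest. Atp5s and Atp5sl carry the prefix of the ATP synthase but are not structural subunits of it.

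Complex IV holds subunits with paralogues for particular tissues, and the ovary had mainly the widely expressed form of each. Cox4i1 made up 96.3% to 98.1% of the summed FPKM of Cox4i1 and Cox4i2 in a library. Cox6a1 made up at least 99.6% of Cox6a1 and Cox6a2, the heart and muscle form, and Cox8a at least 99.3% of Cox8a, Cox8b and Cox8c. Cox7a1, also a heart and muscle form, made up 0.965% to 2.12% of Cox7a1, Cox7a2 and Cox7a2l, the last of which helps to assemble supercomplexes. Cox7a2l itself was the highest of these at 112.3 FPKM, and Cox7a2 was at 88.2 FPKM. Ndufa4l2, the paralogue of the complex IV subunit Ndufa4, made up 2.86% to 6.15% of the pair. Cox6b2, known as the testis form of Cox6b, made up 8.18% to 13.5% beside Cox6b1. Cox5a and Cox5b, nuclear subunits that join the mitochondrially encoded core of complex IV, were at 20.4 and 59.7 FPKM. In complex V, the 3 genes for the c-subunit of the rotor encode the same mature protein, and Atp5g3 took 56.0% to 60.8% of their sum, Atp5g2 31.9% to 36.9% and Atp5g1 6.51% to 7.27%.

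The lowest genes lay near the floor of 1 FPKM. Just inside it were Ndufb2 at 2.02 FPKM, Uqcrc1 at 2.05 FPKM and Cox7a1 at 2.81 FPKM, and just outside it Cox6a2 at 0.544 FPKM and Cox8c at 0.529 FPKM. Cox8b at 0.259 FPKM, Cox7b2 at 0.0789 FPKM and Ndufs3 at 0.0514 FPKM were also left out. Ndufs3 encodes a core subunit of complex I that is part of every working complex. It was listed at 0 in 5 of 9 libraries, while a processed pseudogene nearly identical to its coding sequence, Gm12251, was listed at 5.76 FPKM. Its neighbour Kbtbd4, on the opposite strand and sharing exon bases with it, was listed at 0 in each library.

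Near-identical sequences make several levels uncertain. For 20 of the 80 genes, another gene matched at least 80% of the coding sequence at 95% identity or more. In 5 of them, Cox7c, Atp5l, Atp5g1, Ndufab1 and Ndufa12, the copies summed to more than the gene itself. Ndufa12 was at 10.3 FPKM and its pseudogene Gm15920 at 129.4 FPKM. Atp5g1 was at 15.6 FPKM and Gm10039 at 71.2 FPKM, and Cox7c at 157.6 FPKM and Gm12338 at 168.3 FPKM. How the fragments of such pairs were assigned is not given in the sources used here, so the shares of Atp5g1 above are uncertain, and so is the scatter of Ndufa12, which ran from 4.32 to 21.9 FPKM over the libraries. Since FPKM is scaled to exon length, a long annotated exon union also lowers it. The union was 8086 bases for Ndufs1, 6883 bases for Ndufab1 and 5628 bases for Ndufb2, and 2634 bases for Ndufv1. The part of length in the levels of these genes was not tested.

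To ask whether the subunit genes differed between days, limma was fitted to log2(FPKM + 1) of the 9 libraries together, and the p-values of all 15495 genes tested were corrected after Benjamini and Hochberg. All 80 genes were tested. From PD14 to PD15, 0 of the 80 genes passed an adjusted p under 0.05, against 0.678% of all genes tested, and 6 had an unadjusted p under 0.05, against 14.7%. From PD14 to PD16, 1 passed, against 4.25% of all genes tested, and 7 had an unadjusted p under 0.05, against 22.8%. From PD15 to PD16, 1 passed, against 0.729%, and 3 had an unadjusted p under 0.05, against 14.1%. Under quantile normalisation these 3 unadjusted counts were 10, 14 and 6 (12.5%, 17.5% and 7.5% of the 80), against 15.4%, 22.6% and 14.3% of all genes tested. With FPKM as deposited, leaving out single libraries moved the counts too. From PD14 to PD15 there were 10 without PD15 replicate 3 and 4 without PD14 replicate 3, against 2129 and 1810 of all 15495 genes. From PD15 to PD16 there were 5 without PD15 replicate 1, against 1839. In the F test over the 3 days, 2 genes passed, against 3.03%. The genes were Cox6b2 in complex IV and Atp5e in complex V.

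The bulk of the 80 genes stayed close to 0 in each comparison. The median difference on the log2(FPKM + 1) scale was -0.023 from PD14 to PD15 with 34 genes higher, -0.035 from PD14 to PD16 with 30 higher, and -0.0097 from PD15 to PD16 with 36 higher. Over all genes tested, the medians were 0.0065, 0.0093 and 0.0091, with 51.9%, 52.2% and 53.1% of genes higher. By complex, the medians were -0.030, -0.060, -0.0098, 0.0030 and 0.0088 for complexes I to V from PD14 to PD15, and -0.018, 0.069, -0.060, -0.014 and 0.024 from PD15 to PD16. All 4 genes of complex II had lower means at PD15 than at PD14 and at PD16. Its median ranged from -0.15 (without PD15 replicate 3) to -0.032 (without PD15 replicate 2) in the comparison of PD14 with PD15 and from 0.024 (without PD16 replicate 1) to 0.18 (without PD15 replicate 3) in that of PD15 with PD16. In the other complexes, leaving out single libraries turned the sign of the median in both comparisons. For PD14 and PD15 it was lowest without PD15 replicate 3, at -0.11, -0.11, -0.12 and -0.085 in complexes I, III, IV and V, and highest at 0.028, 0.097 and 0.053 without PD14 replicate 3 in complexes I, III and IV and at 0.071 without PD15 replicate 1 in complex V. For PD15 and PD16 it ranged from -0.068 to 0.046 in complex I and from -0.12 to 0.089 in complex III, without PD15 replicates 2 and 3. It ranged from -0.088 (without PD16 replicate 1) to 0.11 (without PD15 replicate 3) in complex IV and from -0.044 (without PD16 replicate 1) to 0.098 (without PD16 replicate 3) in complex V. The medians from PD14 to PD16 were -0.078 in complex I, 0.014 in complex II, -0.052 in complex III, -0.019 in complex IV and 0.024 in complex V. Single libraries moved the medians from PD14 to PD16 too. They ranged from -0.11 (without PD16 replicate 1) to -0.0046 (without PD14 replicate 3) in complex I and from -0.085 to 0.054 without the same libraries in complex III. Without PD16 replicate 1 and without PD16 replicate 3, they ranged from -0.037 to 0.088 in complex II, from -0.091 to 0.045 in complex IV and from -0.028 to 0.068 in complex V. Each median over all libraries was smaller than the SD between libraries of a day of the median deviation of that complex, which was 0.10 to 0.15. Leaving out single libraries turned the sign of the median over the 80 genes. From PD14 to PD15 it was 0.031 without PD14 replicate 3, 0.025 without PD15 replicate 1, 0.0071 without PD15 replicate 2 and -0.10 without PD15 replicate 3. From PD14 to PD16 it was 0.023 without PD14 replicate 3, 0.037 without PD16 replicate 3, -0.078 without PD14 replicate 2 and -0.078 without PD16 replicate 1. From PD15 to PD16 it was 0.069 without PD15 replicate 3, 0.053 without PD16 replicate 3, -0.043 without PD15 replicate 1, -0.058 without PD15 replicate 2, -0.052 without PD16 replicate 1 and -0.016 without PD16 replicate 2.

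**Figure D2:**
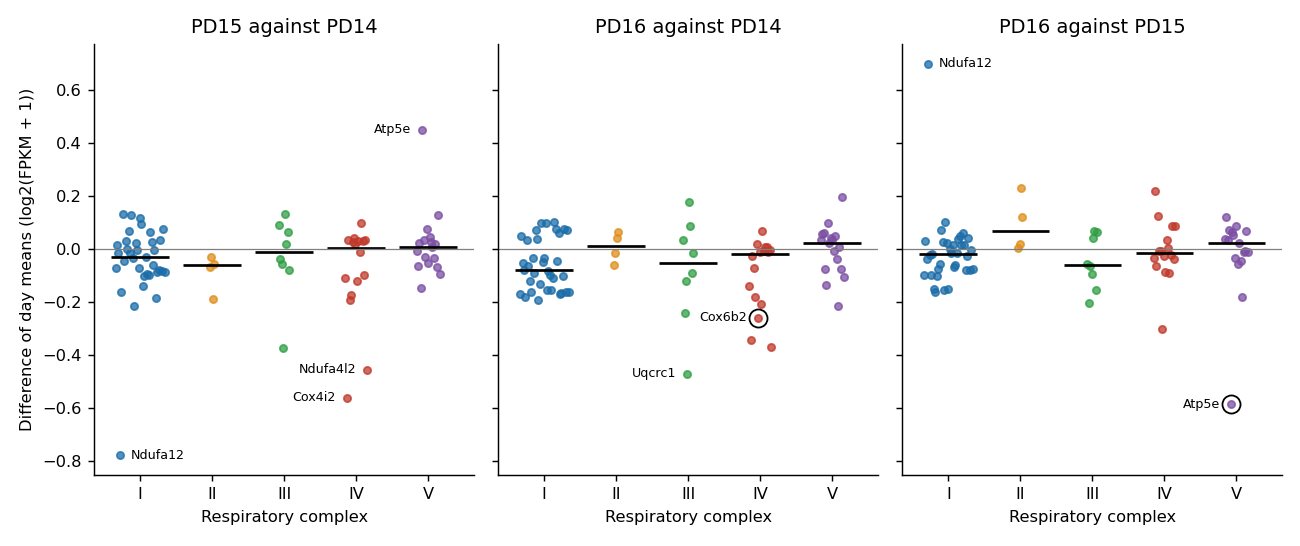
Difference of day means on the log2(FPKM + 1) scale for each of the 80 genes by respiratory complex, in 3 panels for the 3 comparisons, with a bar at the median of the complex. Circles mark Cox6b2 and Atp5e, which passed an adjusted p under 0.05, and genes beyond 0.4 are named. Most genes lie near 0.

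Few genes separated the days in their libraries. The libraries of PD14 and PD15 did not overlap for 8 of the 80 genes, against 20.6% of all genes tested. Those of PD14 and PD16 did not overlap for 9, against 28.5%, and those of PD15 and PD16 for 5, against 19.6%. In the median gene among the 80, 14.6% of the sum of squares lay between days, against 36.7% for all genes tested. The median SD within a day was 0.151 on the log2 scale, against 0.111.

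Atp5e encodes the epsilon subunit of the central stalk of the ATP synthase (chr2:174461072-174464105, minus strand, GRCm38). It was listed at 51.2, 45.0 and 43.4 FPKM in the 3 libraries of PD14, at 62.7, 60.3 and 68.5 FPKM at PD15 and at 41.2, 48.7 and 37.3 FPKM at PD16. The PD15 libraries were above all libraries of the other days. From PD15 to PD16, Atp5e fell by 0.59 ± 0.10 (SE) on the log2 scale (adjusted p = 0.0462, limma), and in the F test its adjusted p was 0.0383. From PD14 to PD15 the difference was 0.45 ± 0.10, which missed the threshold (adjusted p = 0.0942, limma). From PD14 to PD16 it was -0.14 ± 0.10. Atp5a1, Atp5b, Atp5c1 and Atp5d, which encode the alpha, beta, gamma and delta subunits of the same enzyme, differed from PD15 to PD16 by 0.039, 0.12, 0.035 and 0.072, and none of them passed the test. The call of Atp5e from PD15 to PD16 held without PD14 replicate 1 (limma, adjusted p = 0.0452) and without PD16 replicate 2 (adjusted p = 0.0383). It was lost without PD14 replicates 2 and 3 (limma, adjusted p = 0.0549 and 0.0668), without PD15 replicates 1, 2 and 3 (0.139, 0.108 and 0.0986), and without PD16 replicates 1 and 3 (0.141 and 0.0954). It was also lost with a filter of a mean FPKM above 0.1 (limma, adjusted p = 0.0711) and with only the days compared (0.0692). The same held without an intensity trend in the fit (0.0564) and with the replicate number as a block (0.0965). The oocyte markers also had their highest sums at PD15, with 1298 to 1613 FPKM at PD14, 1681 to 1793 FPKM at PD15 and 1259 to 1329 FPKM at PD16, and none of the 15 was under 0.1 FPKM in every library. The difference of 12 of the 15 was above 0 from PD14 to PD15 and that of 15 of the 15 was below 0 from PD15 to PD16, with medians of 0.20 and -0.29 on the log2 scale. Nlrp5 rose from PD14 to PD15 by the test, and Nlrp5 and Zp2 fell from PD15 to PD16. Nlrp5 was at 90.8, 153.0 and 92.5 FPKM on the 3 days, with a difference of 0.76 from PD14 to PD15 (adjusted p = 0.0377, limma). The part of these markers in the values of Atp5e was not tested.

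Cox6b2 encodes a subunit at the intermembrane side of complex IV (chr7:4751792-4753094, minus strand, GRCm38). It was at 17.2, 19.2 and 19.3 FPKM at PD14, at 18.7, 19.6 and 18.9 FPKM at PD15 and at 14.6, 15.5 and 15.8 FPKM at PD16. The PD16 libraries were below all 6 others. From PD14 to PD16 it fell by 0.26 ± 0.059 on the log2 scale (adjusted p = 0.0445, limma), and in the F test its adjusted p was 0.0469. From PD15 to PD16 the difference was -0.30 ± 0.059, which missed the threshold (adjusted p = 0.0608, limma). Its paralogue Cox6b1 was at 137.9 ± 16.4, 140.9 ± 22.1 and 140.2 ± 22.2 FPKM on the 3 days (SD, n = 3). The call of Cox6b2 from PD14 to PD16 was lost when any of the 9 libraries was left out, with adjusted p between 0.0536 (limma, without PD14 replicate 1) and 0.145 (without PD16 replicate 1). A filter of a mean FPKM above 0.1 (limma, adjusted p = 0.0611) and a fit of only the days compared (0.084) also lost it. So did a fit without an intensity trend (0.0614) and one with the replicate number as a block (0.0668). The sums of the oocyte markers at PD14 and PD16 overlapped, as given beside Atp5e. From PD14 to PD16, 10 of the 15 had a difference below 0, 6 of them with an unadjusted p under 0.05, and 5 had one above 0, of which Bmp15 rose by the test. The part of these markers in the values of Cox6b2 was not tested.

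Cox4i2 and Ndufa4l2, paralogues in complex IV that are known to be induced by low oxygen, had lower values at PD15 without passing the test. Cox4i2 (chr2:152754173-152765037, plus strand, GRCm38) was at 7.35, 5.41 and 6.42 FPKM at PD14, at 3.89, 4.32 and 3.75 FPKM at PD15 and at 5.65, 4.53 and 4.29 FPKM at PD16. The libraries of PD14 and PD15 did not overlap, and the difference was -0.56 ± 0.11 on the log2 scale (adjusted p = 0.0733, limma). Ndufa4l2 (chr10:127514967-127517154, plus strand, GRCm38) was at 4.62, 4.42 and 5.74 FPKM at PD14, at 3.30, 3.68 and 2.96 FPKM at PD15 and at 3.07, 3.94 and 3.73 FPKM at PD16. Its PD14 libraries were above all others, with a difference of -0.46 ± 0.11 at PD15 (adjusted p = 0.11, limma) and -0.37 ± 0.11 at PD16 (adjusted p = 0.0892, limma). Both are low genes, with 78 to 142 fragments per library for Cox4i2 and 80 to 128 for Ndufa4l2. The summed theca and interstitial markers ran from 1623 to 2245 FPKM at PD14, from 1196 to 1770 FPKM at PD15 and from 1229 to 1637 FPKM at PD16, and the blood cell markers from 110.4 to 152.2, from 50.9 to 68.1 and from 66.3 to 121.5 FPKM. Most of the theca and interstitial sum was Hsd3b1, a steroidogenic enzyme, at 1785, 1291 and 1273 FPKM on the 3 days, and 4 of the 8 markers (Cyp17a1, Star, Gli1 and Ptch1) had higher means at PD16 than at PD14. Most of the blood cell sum was hemoglobin, with Hba-a1 at 87.4, 33.7 and 62.1 FPKM and Hbb-bs at 29.9, 15.3 and 21.7 FPKM, and 7 of the 8 blood cell markers tested had a difference below 0 from PD14 to PD15. Of the macrophage markers in the list, Csf1r was at 2.03, 1.70 and 1.96 FPKM on the 3 days, Adgre1 at 0.811, 0.935 and 1.18 FPKM and Cd68 at 2.22, 2.16 and 1.99 FPKM, so that only Csf1r had its lowest mean at PD15. The endothelial markers summed to 56.6 to 59.7, 52.3 to 56.3 and 50.9 to 53.2 FPKM, with all 5 lower in mean at PD15 and PD16 than at PD14, and the stromal markers to 604.3 to 693.5, 530.0 to 605.1 and 609.8 to 626.0 FPKM. The granulosa markers summed to 3039 to 3732, 2872 to 3286 and 3002 to 3553 FPKM. Of the 11, 8 were below 0 in their difference from PD14 to PD15 and 7 from PD14 to PD16. Among these, Inhba differed by -0.92 and -1.04 and Cyp19a1 by -0.62 and -0.84. The other markers were above 0, with Amh at 0.45 and 0.47. From PD14 to PD16, Amh rose by the test, and Cyp19a1 and Kitl fell. The fat cell markers summed to 6.89 to 8.05, 4.60 to 5.19 and 4.24 to 6.05 FPKM, and Plin1, the only 1 of the 5 that was tested, fell by 0.60 from PD14 to PD15 and by 0.50 from PD14 to PD16. Of all these markers, only the fat cell marker Ucp1 was under 0.1 FPKM in every library, and their part in the 2 genes' values was not tested. The common forms Cox4i1 and Ndufa4 differed from PD14 to PD15 by -0.11 ± 0.081 and 0.034 ± 0.13.

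**Figure D3:**
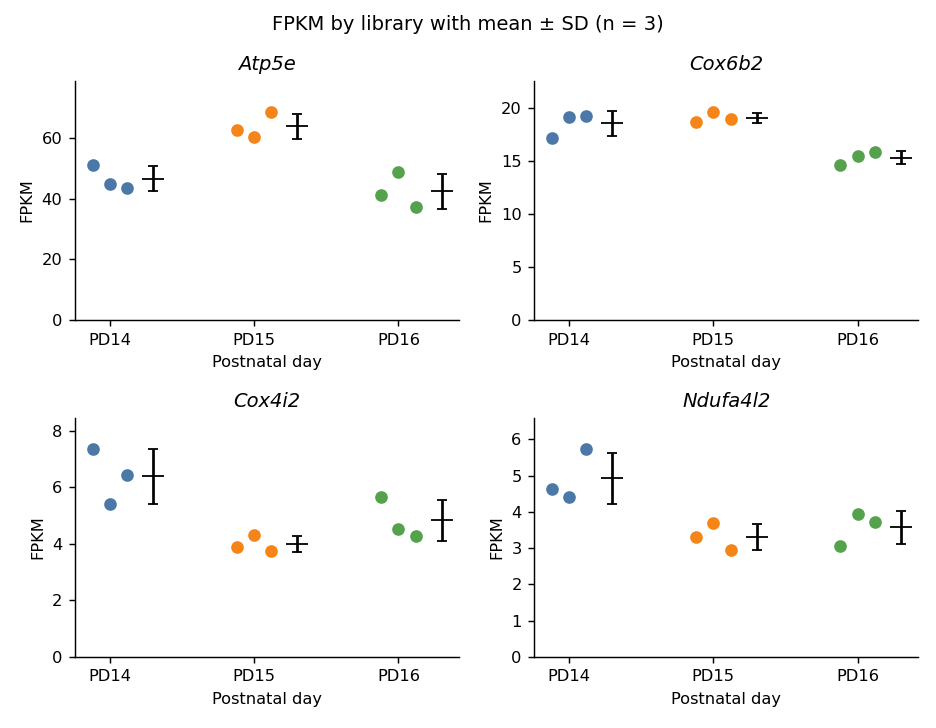
FPKM of Atp5e, Cox6b2, Cox4i2 and Ndufa4l2 in each of the 9 libraries by postnatal day, with the mean and SD (n = 3) beside the points. Atp5e is highest in the 3 libraries of PD15 (60.3 to 68.5 FPKM), and Cox6b2 is lowest in those of PD16 (14.6 to 15.8 FPKM).

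The remaining genes with the smallest p-values of their complex had small differences. Ndufb10, an accessory subunit of complex I, was at 38.5, 36.4 and 40.1 FPKM at PD14, at 31.1, 33.0 and 34.6 FPKM at PD15 and at 34.6, 33.99 and 31.9 FPKM at PD16. Its PD14 libraries lay above the other 6, with differences of -0.22 ± 0.062 (adjusted p = 0.16, limma) and -0.19 ± 0.062 (adjusted p = 0.113, limma). Ndufv1 was at 48.6, 47.2 and 50.4 FPKM at PD14, at 45.8, 46.4 and 45.7 FPKM at PD15 and at 42.5, 44.6 and 43.1 FPKM at PD16. Its 3 days did not overlap, although the difference from PD14 to PD16 was only -0.16 ± 0.050 (adjusted p = 0.0954, limma). Sdhc was at 32.9, 29.4 and 31.8 FPKM at PD14, at 26.8, 27.0 and 28.3 FPKM at PD15 and at 33.2, 33.98 and 29.7 FPKM at PD16. Its PD15 libraries were below the other 6, with a difference from PD15 to PD16 of 0.23 ± 0.067 (adjusted p = 0.159, limma). Uqcr11 differed from PD14 to PD16 by -0.24 ± 0.095 (adjusted p = 0.172, limma), and Atp5s by 0.20 ± 0.068 (adjusted p = 0.132, limma). Uqcrc2 differed from PD14 to PD15 by 0.13 ± 0.11 and Sdha from PD14 to PD16 by -0.061 ± 0.054. Ndufs1, Sdhb, Uqcrfs1, Cox5a and Atp5b differed from PD14 to PD16 by 0.076 ± 0.088, -0.014 ± 0.11, 0.088 ± 0.097, -0.027 ± 0.087 and 0.058 ± 0.075. Cox5b was at 63.5 ± 5.62 FPKM at PD14, 55.4 ± 4.69 FPKM at PD15 and 60.3 ± 0.733 FPKM at PD16 (SD, n = 3).

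In several libraries, most of the 80 genes deviated in the same direction, also between libraries of the same day. Each gene's deviation from its own mean over the 9 libraries was averaged. It was -0.0018, -0.048 and 0.14 in PD14 replicates 1, 2 and 3, -0.094, -0.075 and 0.14 in those of PD15, and 0.062, 0.0040 and -0.13 in those of PD16. In PD14 replicate 3, 72 of the 80 genes were above their own mean, and in PD15 replicate 3, 65 were, whereas in PD15 replicate 1 only 8 were and in PD16 replicate 3 only 6. PD15 thus held both a library with nearly all genes low and a library with most of them high. The 5 complexes had the same sign in the libraries numbered 3. In PD15 replicate 3 the mean deviation was 0.16 for complex I, 0.062 for complex II, 0.17 for complex III, 0.095 for complex IV and 0.15 for complex V, and in PD16 replicate 3 it was -0.13, -0.097, -0.12, -0.15 and -0.13. The summed FPKM of the 80 genes was accordingly 5675 ± 366.1 at PD14, 5598 ± 612.3 at PD15 and 5529 ± 453.8 at PD16 (SD, n = 3), so that the means of the days differed by less than the spread between libraries. The first principal component of the 80 genes held 39.5% of their sum of squares, and the second held 29.1%. On the first, 77 genes loaded with the same sign. The other 3 were Atp5sl, Cox7a1 and Ndufab1.

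**Figure D4:**
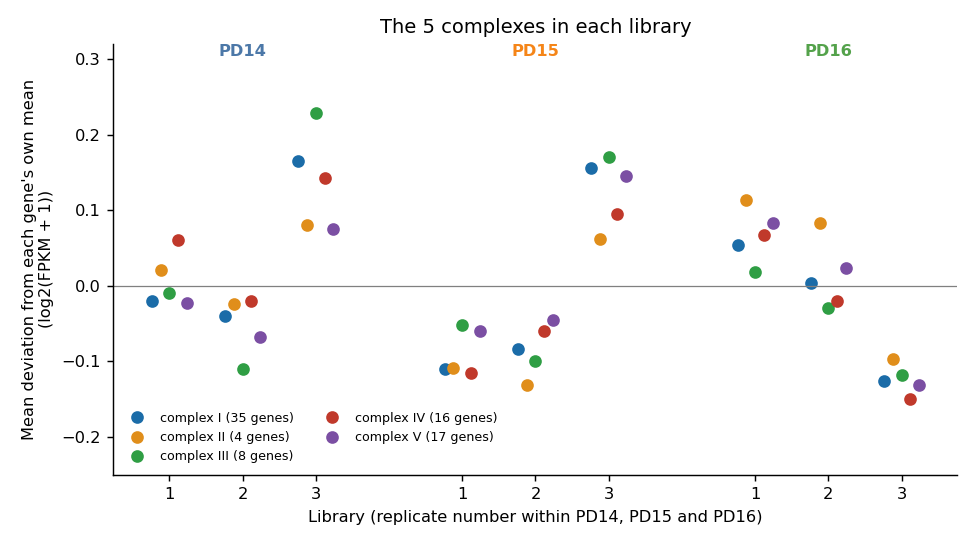
Mean deviation of the genes of each complex from their own means over 9 libraries, on the log2(FPKM + 1) scale, for each library by replicate number within its day. The 5 complexes are all above 0 in PD14 replicate 3 and PD15 replicate 3 and all below 0 in PD16 replicate 3, while their signs differ in PD14 replicate 1 and PD16 replicate 2.

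Other short genes shared this pattern. The 80 genes had a median exon length of 1631 bases, against 3832 bases for the genes tested, and 37 of them (46.3%) were under 1500 bases, against 17.99% of the genes tested. For 347 other abundant genes under 1500 bases, with ribosomal proteins left out, the mean deviation was 0.11 in PD14 replicate 3, 0.17 in PD15 replicate 3 and -0.12 in PD16 replicate 3. For 1336 abundant genes of 1500 bases or more, it was 0.0080, 0.030 and -0.030 in the same libraries, and for all genes tested 0.0014, 0.012 and -0.00070. The 77 mitochondrial ribosomal proteins had 0.071, 0.093 and -0.096, and the 82 cytosolic ribosomal proteins 0.044, 0.21 and -0.089. For the 13 protein genes of the mitochondrial genome, the values were 0.072, 0.14 and -0.17. The part of gene length or of RNA quality in the pattern was not tested. Without the 3 libraries numbered 3, a choice made after seeing these values, the median difference of the 80 genes was -0.053 from PD14 to PD15, 0.080 from PD14 to PD16 and 0.13 from PD15 to PD16, and 0 of the 80 genes passed in any comparison, with 10, 18 and 25 at an unadjusted p under 0.05 (limma), which is 12.5%, 22.5% and 31.3% of the 80, against 12.1%, 21.5% and 17.9% of all genes tested.

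**Figure D5:**
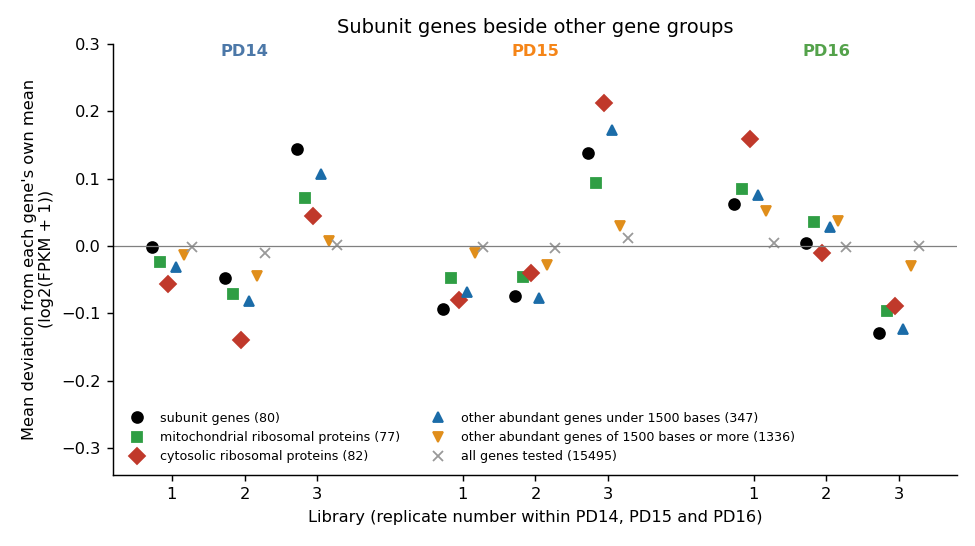
Mean deviation from the genes' own means, on the log2(FPKM + 1) scale, in each library for the subunit genes and 5 other sets, with the number of genes in parentheses. Subunit genes, ribosomal proteins and other abundant genes under 1500 bases are all above 0 in PD15 replicate 3 and below 0 in PD16 replicate 3, while all genes tested stay near 0.

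Other genes of the pathway were taken from 5 lists. Among 47 tested assembly factors, 0 passed from PD14 to PD15 and from PD15 to PD16, where 0.678% and 0.729% of all genes passed in either direction, with 6 and 3 at an unadjusted p under 0.05, against 14.7% and 14.1% of all genes. In the comparison of PD14 with PD16, 1 rose, against 4.25% of all genes that passed in either direction, and 6 had an unadjusted p under 0.05, against 22.8%. The gene that rose was Ttc19, a factor for complex III. It was at 8.43 ± 0.155 FPKM at PD14, 10.2 ± 0.518 FPKM at PD15 and 10.4 ± 0.431 FPKM at PD16 (SD, n = 3), with a difference of 0.27 ± 0.056 from PD14 to PD16 (adjusted p = 0.0306, limma). The call held without any 1 library of PD15 and was lost without PD14 replicates 1, 2 and 3 (limma, adjusted p = 0.0831, 0.0645 and 0.105) and without PD16 replicates 1, 2 and 3 (0.0911, 0.0603 and 0.0724). Of the 10 electron carriers and subunits outside the name rule, which include cytochrome c (Cycs) and cytochrome c1 (Cyc1), 0 passed in any comparison, with 1 at an unadjusted p under 0.05 from PD14 to PD16. Cyc1 was at 105.1 ± 8.28 FPKM and Cycs at 21.7 ± 1.74 FPKM at PD14. Of the 17 genes of the citric acid cycle, 0 passed in any comparison, with 1 at an unadjusted p under 0.05 from PD14 to PD16.

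The mitochondrial genome encodes 13 proteins of complexes I, III, IV and V, and they took 14792 to 19473 FPKM per library. Of the 13 genes, 1 fell from PD14 to PD16, against 4.25% of all genes that passed in either direction. It was mt-Atp8, which encodes a subunit of the ATP synthase. It was listed at 3.00, 3.04 and 3.13 FPKM at PD14, at 1.35, 1.85 and 1.71 FPKM at PD15 and at 2.06, 1.30 and 1.73 FPKM at PD16. The difference from PD14 to PD16 was -0.60 ± 0.12 (adjusted p = 0.0288, limma), and that from PD14 to PD15 was -0.63 ± 0.12 (adjusted p = 0.0552, limma). The call from PD14 to PD16 was lost without PD14 replicates 1, 2 and 3 (limma, adjusted p = 0.0772, 0.0609 and 0.1) and without PD16 replicates 2 and 3 (0.0634 and 0.057). The gene is short and overlaps mt-Atp6, so fragments of the pair may not have been told apart. The median difference of the 13 genes from PD14 to PD16 was -0.053.

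The regulators of mitochondrial biogenesis gave 1 call among 22 genes tested from PD14 to PD16, where 4.25% of all genes passed. Pprc1, a coactivator related to PGC-1, rose from 6.19 ± 0.807 FPKM at PD14 to 8.75 ± 0.764 FPKM at PD16 (SD, n = 3), by 0.44 ± 0.10 on the log2 scale (adjusted p = 0.0449, limma). The call held without PD14 replicate 2 and without PD15 replicate 1, and was lost without PD14 replicates 1 and 3 (limma, adjusted p = 0.122 and 0.144), PD15 replicates 2 and 3 (0.0619 and 0.0523) and PD16 replicates 1, 2 and 3 (0.0849, 0.0975 and 0.0998). It was also lost under median-ratio scaling (0.0517) and quantile normalisation (0.0505). The median difference of the 22 genes was 0.096 from PD14 to PD16, with 17 of them (77.3%) higher, against 52.2% of all genes tested. At an unadjusted p under 0.05 there were 4 of the 22, against 22.8% of all genes tested. Ppargc1a, which encodes PGC-1 alpha, was at 0.579, 0.386 and 0.393 FPKM on the 3 days and was not tested. Nrf1 was at 5.13 ± 0.165, 4.896 ± 0.212 and 5.13 ± 0.132 FPKM, and Esrra, an estrogen-related receptor, at 7.45 ± 0.442, 6.73 ± 0.259 and 6.48 ± 0.768 FPKM. Tfam, which packages mitochondrial DNA and activates its transcription, was at 15.2 ± 0.865, 15.3 ± 1.58 and 16.6 ± 0.852 FPKM. None of the last 3 passed the test, and the adjusted p from PD14 to PD16 was 0.999, 0.223 and 0.383 (limma).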

How the data were processed

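Libraries were made from ovarian RNA with an Illumina kit (NEBNext Ultra) and read on a HiSeq instrument, 3 each for PD14, PD15 and PD16. The authors deposited 1 table of FPKM per library, with mm10 and HISAT2 2.0.5 named in the submitters' processing notes; the counter and annotation are not given in the sources used here. From the step of a single fragment and GENCODE M21 exon lengths, 93.3% to 93.8% of low values were whole fragments within 0.02, which gave 20369006 to 28730960 fragments per library; these were not used in a count test. FPKM was used as deposited, as log2(FPKM + 1), which understates the change of low genes. A gene was tested if its mean FPKM exceeded 1 for any day (15495 genes), with limma 3.58.1 in R 4.3.3, with an intensity trend and 6 residual degrees of freedom. Near-identical genes were found with BLAST 2.17.0. Python 3.11.15, NumPy 2.4.6, pandas 2.3.3, statsmodels 0.14.6 and Matplotlib 3.10.9 were used. The fit was tested on simulated data.

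The members and lists were chosen with earlier results of these data known. Ndufa4 and Ndufa4l2 were placed in complex IV. Genes named were those that passed a test, the highest, the lowest and the smallest p of each complex, a fixed list of catalytic, iron-sulfur and other subunits, paralogue groups, and outside the complexes the genes of the 4 mitochondrial lists that passed plus Ppargc1a, Esrra, Nrf1 and Tfam. Not every gene under this rule is reported here. Other genes were named after their values were seen. Alternatives were another pseudocount, other filters and scalings, no trend, only the days compared, the replicate number as a block, and each library left out.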

Additional observations from a re-analysis of the deposited data

How the results depend on the processing

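The count of subunit genes that passed rested on 2 genes near the threshold. From PD14 to PD15 it was 0 in every fit run. From PD14 to PD16 it was 1 and became 0 with a filter of a mean FPKM above 0.1, without the intensity trend, with only the days compared, and in each fit without a library (0 to 0). From PD15 to PD16 it was 1 and became 0 under the same 3 settings and 2 with a filter above 5, and ranged from 0 to 1 without a library. In the F test it was 2, and became 0 with the filter above 0.1 and 1 without the trend, with 0 to 2 without a library. The labels do not say whether the replicate number pairs the libraries. Same-numbered libraries correlated in their deviations by -0.21 to 0.16, and differently numbered ones by -0.20 to 0.21. As deviations from means of only 3 libraries, these values cannot decide it. With the replicate block, 0 subunit genes passed in the comparisons of PD16 and in the F test, and 24, 227, 56 and 127 of all genes in the 4 tests. Of all genes, 105 passed from PD14 to PD15, 659 from PD14 to PD16, 113 from PD15 to PD16 and 469 in the F test. These became 42, 426, 50 and 228 with the filter above 0.1. From PD14 to PD15, 63 passed with the filter above 5 and 47 with only the days compared, which gave 320 from PD14 to PD16. Without a library the counts ranged from 3 to 92, 93 to 666, 14 to 125 and 74 to 352. Pseudocount, median-ratio scaling and quantile normalisation changed no count of subunit genes or of all genes past the adjusted threshold by more than 1.5 times. Outside these counts, the call of Pprc1 was lost under both scalings, as given above.

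Alternatives chosen after seeing the data were a fit without the libraries numbered 3 and a covariate for short abundant genes. Without those libraries, 0 subunit genes passed in each test, 24, 8, 14 and 19 of all genes passed, and the median of the subunit genes from PD15 to PD16 was 0.13. With the covariate, 3 subunit genes passed from PD14 to PD16, which were Cox6b2, Ndufb10 and Uqcrc2, and of all genes tested 172 passed from PD14 to PD15, 1259 from PD14 to PD16 and 738 in the F test. At an unadjusted p under 0.05 there were 12, 15 and 7 subunit genes in the 3 comparisons, against 2911, 4310 and 2734 of all genes. The causes were not tested. The medians of the subunit genes ranged without a library from -0.10 to 0.031, from -0.078 to 0.037 and from -0.058 to 0.069. They kept their sign under another pseudocount, both scalings and with a trend of length taken off, except from PD15 to PD16, where the last gave 0.0027. Depth limits low genes such as Cox7a1 (26 to 49 fragments per library).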
